A study of Rattus norvegicus with 3 samples.

Results

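Expression of genes of the DNA damage response and DNA repair was compared between 2 rat sarcoma cell lines and rat mesenchymal stem cells (MSCs). The set held 48 genes chosen by name, from homologous recombination, the Fanconi pathway, end joining, mismatch repair, base excision repair, nucleotide excision repair and damage sensing with its checkpoints. A named probe was found for 32 of the 48, of 13301 genes with a named probe in all. Of these, 31 gave a signal well above background on at least 1 array, out of 10010 such genes, and the counts below are over these 31. Xrcc2, a recombination gene, had a probe but read 3.76 in MSC, 7.35 in COS1NR and 12.8 in MFH1NR, not well above background on any array. No probe was named for Palb2, Rad52, Rad54b, Xrcc3, Blm, Wrn, Fanca, Fancg, Fanci, Fancl, Brip1, Msh6, Ercc2, Ddb1, Ddb2 and Atr, which were not analysed here.

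COS1NR is an osteosarcoma line and MFH1NR a malignant fibrous histiocytoma line, both raised in Fischer 344 (F344) rats with the chemical carcinogen named in the study's methods as 4-hydroxy quinolone 1-oxide, and both described there as carrying a p53 mutation. The MSCs were bone marrow cells of the same strain, taken from the femur and kept by their adherence to plastic, in the same medium with more serum. No age was given for any animal. RNA from each cell type was labelled with Cy3 and hybridized to 1 Agilent whole rat genome array, so that each line and the MSCs stand as 1 sample, with no replicate and no test between cell types. A difference between arrays is therefore described by its size, with 2-fold as the mark.

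DNA repair works through pathways that each answer a different lesion. Double-strand breaks are either joined end to end or copied from the sister chromatid by homologous recombination, crosslinks are opened by the Fanconi proteins, and damaged or mispaired bases are cut out by the base excision, nucleotide excision and mismatch pathways. Kinases that sense the damage hold the cell cycle while repair proceeds, and many of the genes for recombination and replication-linked repair are transcribed mainly in cycling cells, with E2F factors among their known regulators.

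Between 56.6% and 59.7% of non-control spots were well above background on the 3 arrays, and no spot was saturated. COS1NR and MFH1NR were hybridized on a single slide and scanned together, apart from MSC. A slide effect and a cell type effect therefore cannot be told apart in either comparison with MSC, and the MSC array serves both. For 1891 genes with more than 1 probe above background, the log2 ratios of different probes of the gene differed by a median of 0.28 for COS1NR over MSC, 0.31 for MFH1NR over MSC and 0.15 for MFH1NR over COS1NR, with 90th percentiles of 0.91, 0.98 and 0.59, and the scanner software's own spot error of a member's log2 ratio was 0.20 to 0.31. The MSC marker genes Nt5e, Eng, Thy1 and Cd44 were all well above background in MSC, with 2 of 4 in COS1NR and 3 of 4 in MFH1NR. In the array labelled MSC, all 12 macrophage markers were also well above background, with a summed level of 127 on the scale of the array's 75th percentile, whereas COS1NR had 6 of 12 with a sum of 9.55 and MFH1NR 5 of 12 with a sum of 4.59. Of 5 osteoblast markers with a probe, 4 were well above background in COS1NR and in MSC and 5 in MFH1NR, the exception in both being Sp7. At least 2-fold below MSC were, in COS1NR and MFH1NR, 3 and 2 of 4 MSC markers, 12 and 12 of 12 macrophage, 4 and 2 of 5 osteoblast and 6 and 4 of 7 fibroblast markers, the last with log2 medians of -3.84 and -1.99. These counts use the brightest probe of each gene. Second probes of Col1a1 (-3.69 and -3.35), of Col1a2 in MFH1NR (-4.56) and of Cd44 in COS1NR (-1.93) passed 2-fold where the first did not. The osteoblast list went both ways in MFH1NR, where Spp1 was 2.44-fold and Sp7 at least 3.56-fold above MSC and the summed level was 153 against 75.5 in MSC. The part of these cell types in the levels of the repair genes was not tested. Fewer cells of a type and less RNA per cell cannot be told apart in these bulk samples.

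Most genes of homologous recombination, both Fanconi genes, Exo1 and Chek2 stood far above MSC in both lines, whereas Ercc1 stood below it. In COS1NR, 13 of the 31 members were at least 2-fold above MSC, where 20.0% of all 10010 genes were, and 1 was at least 2-fold below, where 19.4% of all genes were. In MFH1NR, 15 were at least 2-fold above MSC against 19.0% of all genes, and 2 were below against 21.2%. Both lines were at least 2-fold above MSC for 10 members, Brca1, Brca2, Bard1, Rad51c, Rad54l, Fancc, Fancd2, Exo1, Chek2 and Rad50, where 10.8% of all genes were, and both were below for Ercc1 alone, where 12.9% of all genes were. At any size, 25 of the 31 were above MSC in COS1NR and 26 in MFH1NR, beside 5166 of 9640 and 4962 of 9823 genes with a ratio. Over the 31, the log2 ratio had a median of 0.91 for COS1NR and 0.98 for MFH1NR, beside 0.11 and 0.02 over all genes. These splits depended on the scaling of the arrays: for MFH1NR, 25 members were higher and 0 lower with unscaled intensities, where 40.6% of all genes were higher and 12.7% lower, and 22 and 0 with spike-in scaling, where 33.0% and 14.7% were. All 12 proliferation markers with a probe were at least 2-fold above MSC in both lines, where 10.8% of all genes were. Their log2 ratios had a median of 2.36 for COS1NR and 2.46 for MFH1NR, beside 0.91 and 0.98 for the members. The part of proliferation in the levels of the repair genes was not tested.

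**Figure D1:**
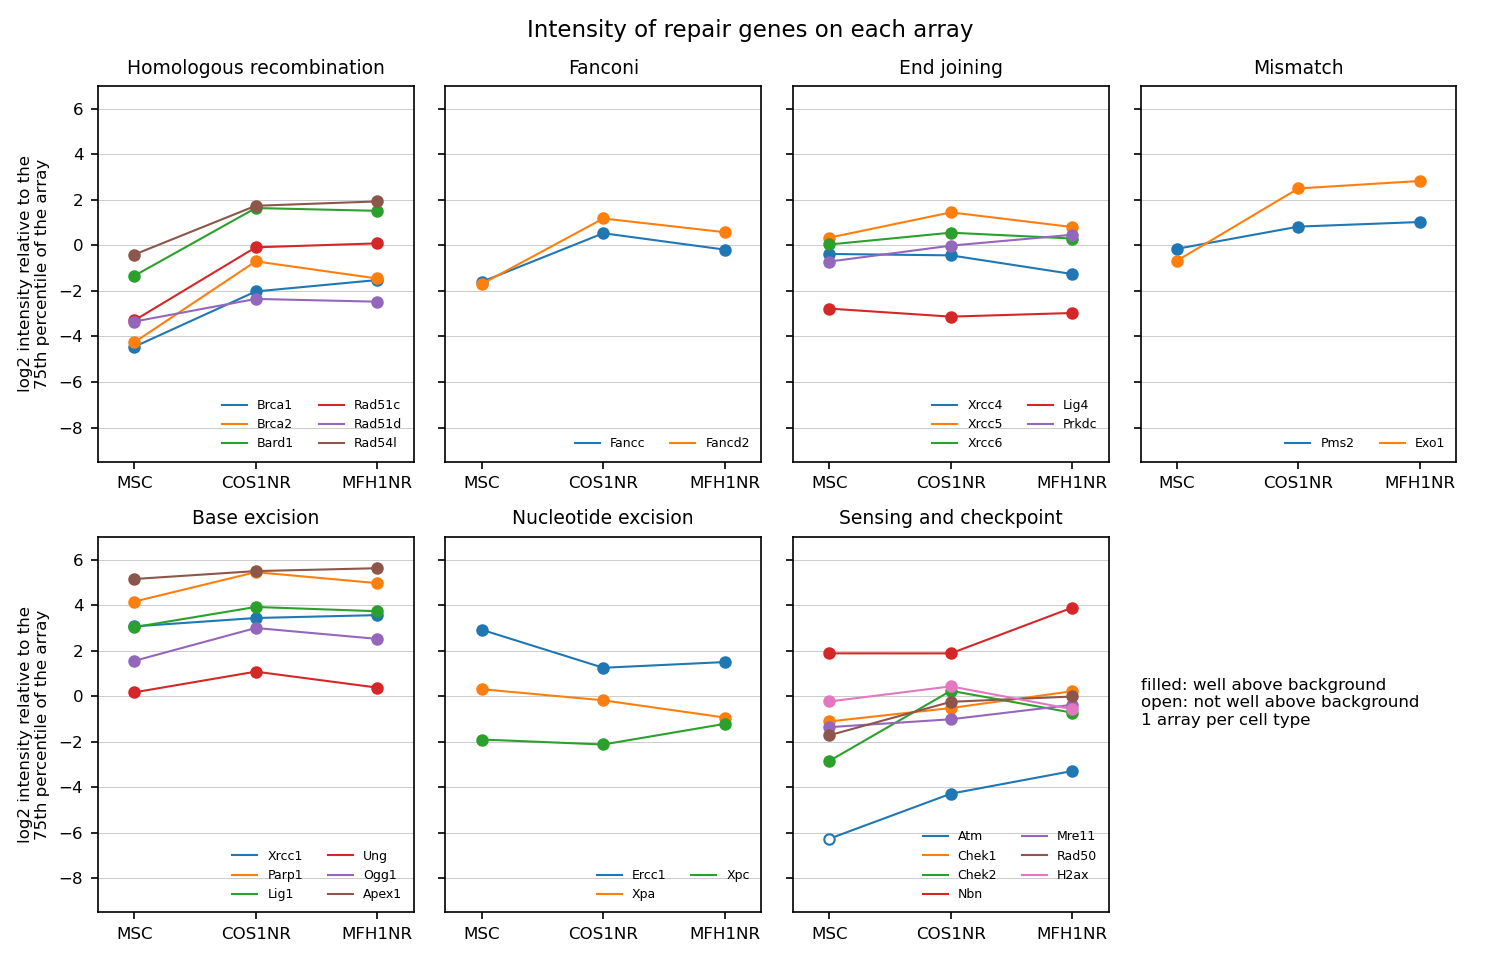
Level of each of the 31 members on the MSC, COS1NR and MFH1NR arrays (log2 intensity minus the array's 75th percentile), 1 point per array joined by a line per gene, with 1 panel per pathway. The open point is the value of Atm in MSC, not well above background. The lines of Brca1, Brca2, Rad51c, Exo1 and Chek2 climb from MSC to both sarcomas, and that of Ercc1 descends.

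In homologous recombination, 5 of the 6 members were at least 2-fold above MSC in both lines, beside 10.8% of all genes, and the log2 medians were 2.70 (COS1NR over MSC) and 2.83 (MFH1NR over MSC). Brca1, the tumor suppressor that directs breaks into recombination, had an intensity of 26.9 in MSC, 190.3 in COS1NR and 346 in MFH1NR. After each array was scaled to its own 75th percentile, which was 589 in MSC, 774 in COS1NR and 994 in MFH1NR, this was 5.39-fold above MSC in COS1NR and 7.63-fold in MFH1NR. Bard1, the partner of Brca1 in a ubiquitin ligase, had an intensity of 233 in MSC, 2411 in COS1NR and 2846 in MFH1NR, or 7.87-fold and 7.23-fold above MSC. Brca1 was thus dim in MSC, close to the lowest signal called well above background there, 17.9, while Bard1 was well measured on every array.

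Brca2, a tumor suppressor needed for recombination, had an intensity of 30.8 in MSC, 476 in COS1NR and 363 in MFH1NR, and was 11.8-fold and 6.98-fold above MSC. A second probe of Brca2 read 27.6, 509.8 and 356, with log2 ratios of 3.81 and 2.93 beside 3.56 and 2.80 for the first, and both probes put COS1NR above MFH1NR, an order that spike-in scaling turned (0.04 for MFH1NR over COS1NR). Background correction with limma's normexp lowered the ratios of both genes: the Brca2 log2 ratio in MFH1NR became 1.46 and that of Brca1 in COS1NR 1.18, both still over 2-fold.

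Rad51c, which acts early and late in recombination, read 59.9 in MSC, 729.8 in COS1NR and 1056 in MFH1NR, 9.27-fold and 10.4-fold above MSC. Rad54l, a motor protein that moves along DNA during strand pairing, read 445, 2584 and 3789.7, 4.42-fold and 5.04-fold above MSC. Rad51d, which works in a complex with Xrcc2, was the member nearest to MSC in this pathway, at 57.9, 152 and 179. Its ratio of 1.99 in COS1NR lay just under the 2-fold mark, and that in MFH1NR was 1.83. For all 6 genes both sarcoma arrays were above the MSC array, and no pair of sarcoma values was 2-fold apart on these scaled values. With spike-in scaling the log2 ratio of Brca1 for MFH1NR over COS1NR was 1.29, past the mark.

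Both measured Fanconi members were higher in the sarcomas, and for each COS1NR stood above MFH1NR on the scaled values. Fancd2, the protein that is ubiquitinated when a crosslink is recognized, had an intensity of 182 in MSC, 1754 in COS1NR and 1485 in MFH1NR, 7.33-fold and 4.83-fold above MSC. Fancc, a part of the core ligase complex, read 194, 1119.9 and 874, 4.39-fold and 2.66-fold above MSC. The log2 ratio of MFH1NR over COS1NR was -0.60 for Fancd2 and -0.72 for Fancc, but it was 0.19 and 0.07 with spike-in scaling, so their order between the lines depended on the scaling.

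In mismatch repair, Exo1, the exonuclease that removes the mispaired strand and also resects breaks, was the member farthest above MSC in MFH1NR. Its intensity was 369.7 in MSC, 4378 in COS1NR and 7066 in MFH1NR, 9.02-fold and 11.3-fold above MSC. Pms2, a mismatch repair endonuclease, read 531, 1369.8 and 2025, which was 1.96-fold and 2.26-fold above MSC, on either side of the mark in the 2 lines. Its second, dimmer probe gave ratios of 1.63 and 3.26.

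**Figure D2:**
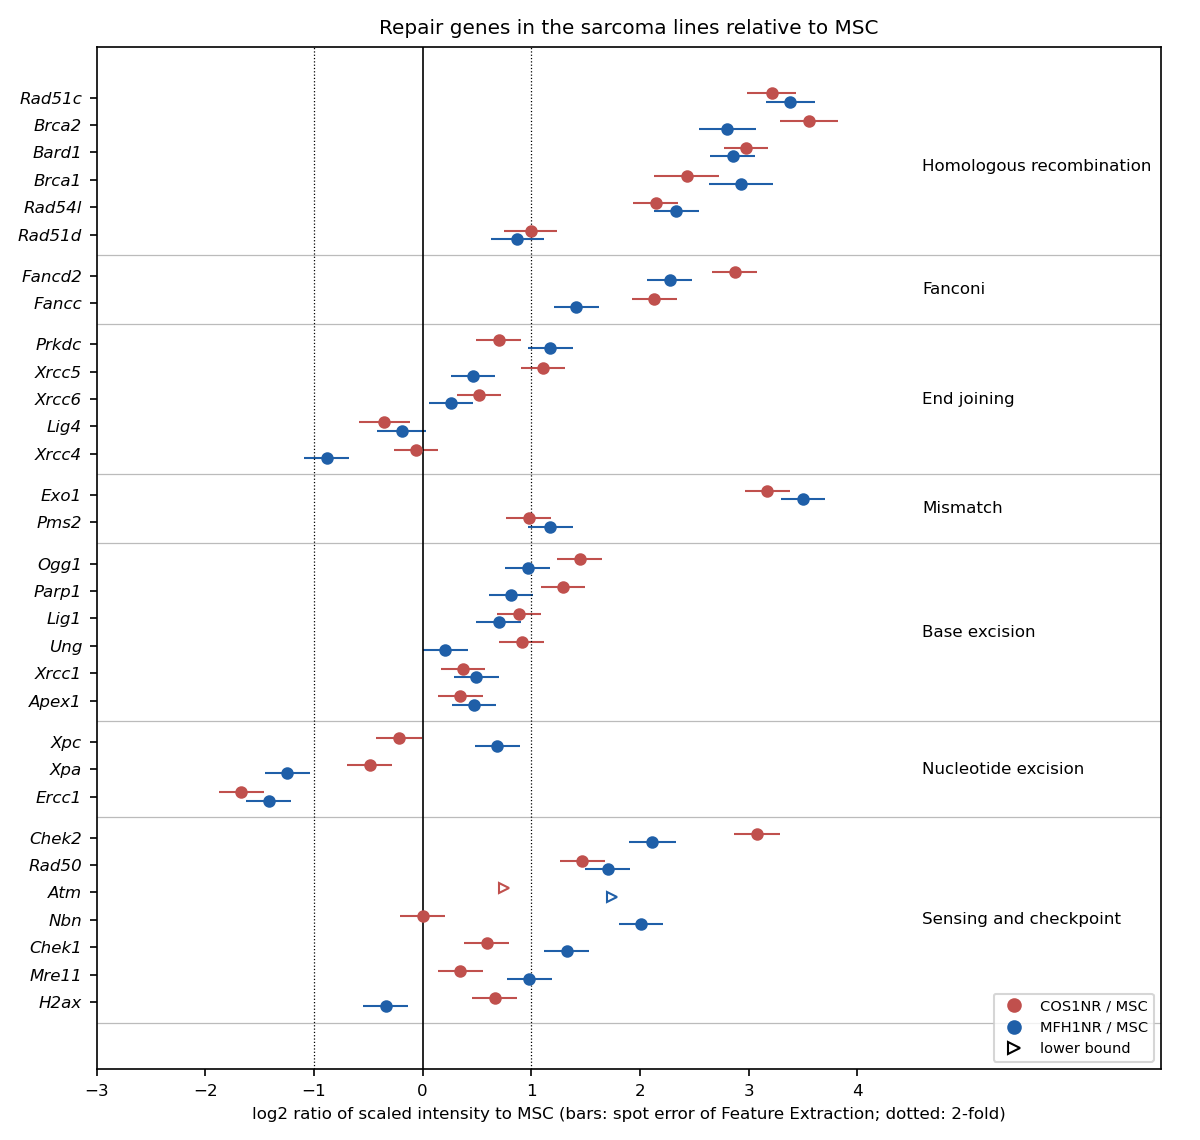
Log2 ratio of COS1NR over MSC and of MFH1NR over MSC for the 31 members by pathway, with dotted lines at 2-fold, open triangles for the lower bounds of Atm, and bars for the scanner software's spot error, which does not cover the spread between cultures. The recombination, Fanconi and Exo1 points lie to the right of the 2-fold line except Rad51d, the end joining points spread from -0.88 to 1.18, and Ercc1 lies to the left.

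End joining had 1 of its 5 members at least 2-fold above MSC in each line, beside 20.0% and 19.0% of all genes, and none in both, beside 10.8%. The pathway medians were 0.52 (COS1NR) and 0.26 (MFH1NR) on the log2 scale. Xrcc5 (Ku80), which with Xrcc6 (Ku70) caps a broken end, was the member farthest from MSC in COS1NR, at 746 in MSC, 2112 in COS1NR and 1737 in MFH1NR, or 2.16-fold and 1.38-fold, and under 2-fold in COS1NR with spike-in scaling (a log2 ratio of 0.84). Xrcc6 itself was 1.43-fold and 1.20-fold. Prkdc, the kinase recruited by the Ku pair, read 359.9, 767 and 1373, 1.62-fold and 2.26-fold above MSC. The second Prkdc probe was not well above background on any array, and with the mean of both probes the log2 ratio in MFH1NR was 0.58, under 2-fold. With unscaled intensities, Prkdc in COS1NR (1.09) and Xrcc5 and Xrcc6 in MFH1NR (1.22 and 1.02) also passed the mark. In that setting 31.6% of all genes were higher in COS1NR and 40.6% in MFH1NR. Lig4, the ligase of this pathway, read 85.9, 88.4 and 127, a log2 ratio of -0.35 and -0.19, and its cofactor Xrcc4 gave -0.06 and -0.88. With unscaled intensities Lig4 gave 0.04 and 0.56 and Xrcc4 gave 0.33 in COS1NR, so the side of MSC on which Lig4 lay in both lines and Xrcc4 in COS1NR depended on the scaling. The Xrcc4 value in MFH1NR stayed below 0 under the alternatives tried, between -1.01 and -0.13.

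Base excision repair was higher in both lines for all 6 members, with 2 of 6 past 2-fold in COS1NR and 0 in MFH1NR, beside 20.0% and 19.0% of all genes. These counts depended on the scaling, which moved all genes too. They were 4 and 5 with unscaled intensities (31.6% and 40.6% of all genes), 4 and 2 with median scaling (24.3% and 24.2%) and 2 and 4 with spike-in scaling (14.2% and 33.0%). Its log2 medians were 0.90 (COS1NR) and 0.60 (MFH1NR). Ogg1, the glycosylase for oxidized guanine, had an intensity of 1723 in MSC, 6158 in COS1NR and 5679.9 in MFH1NR, 2.72-fold and 1.95-fold above MSC. Parp1, which senses nicks and builds poly(ADP-ribose), was measured by a probe printed 10 times at 10469.7, 33694 and 31000.3, 2.45-fold and 1.75-fold above MSC, and by a second probe at 2.32-fold and 1.62-fold. The other 4 lay between 1.16-fold and 1.88-fold above MSC. They were Xrcc1, the scaffold for Lig3, then the replicative ligase Lig1, the uracil glycosylase Ung and the abasic site nuclease Apex1, which was nearest to MSC in COS1NR, at 20828.5, 34814 and 48836.

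Nucleotide excision repair, with 3 measured members, was the pathway with medians below MSC, -0.49 (COS1NR) and -1.24 (MFH1NR) on the log2 scale, whereas 12 other genes of the pathway had medians above it, 0.81 and 0.75. Ercc1, which with Ercc4 cuts the damaged strand on its 5′ side, had an intensity of 4439 in MSC, 1834 in COS1NR and 2804 in MFH1NR. On the scaled values it was 3.18-fold below MSC in COS1NR and 2.67-fold below in MFH1NR. Its log2 ratio stayed below 0 under the alternatives tried, between -1.94 and -1.27 for COS1NR and between -1.45 and -0.66 for MFH1NR, but with unscaled intensities (-0.66) and spike-in scaling (-0.90) the difference in MFH1NR was under 2-fold. Xpa, which verifies the lesion, read 727, 681 and 518, with log2 ratios of -0.49 and -1.24, and the latter became -0.49 with unscaled intensities, -0.72 with spike-in scaling and just under 2-fold with normexp. Xpc, which finds the distorted helix, read 157, 177 and 427, on opposite sides of MSC in the 2 lines at -0.22 and 0.69, and with unscaled intensities the value in COS1NR was 0.17.

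Among the sensing and checkpoint genes, Chek2 and Rad50 were at least 2-fold above MSC in both lines, and the log2 medians of the 7 were 0.66 (COS1NR) and 1.70 (MFH1NR). Chek2, the kinase activated by Atm after breaks, had an intensity of 82.1 in MSC, 910.1 in COS1NR and 599.9 in MFH1NR, 8.44-fold and 4.33-fold above MSC. Chek1, its counterpart downstream of Atr, read 273, 538 and 1154, 1.5-fold and 2.51-fold above MSC. The checkpoint kinases thus ordered the lines in opposite ways, with Chek2 higher in COS1NR and Chek1 higher in MFH1NR, each by less than 2-fold on these scaled values.

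The Mre11, Rad50 and Nbn proteins form the complex that binds broken ends and activates Atm, and their transcripts did not share a level relative to MSC. Rad50 read 179 in MSC, 650.3 in COS1NR and 983 in MFH1NR, 2.77-fold and 3.25-fold above MSC. Mre11 read 229, 382 and 763, 1.27-fold and 1.97-fold. Nbn read 2166, 2843 and 14707, with a ratio of 0.999 in COS1NR, a value whose sign turned with the scaling, and 4.02 in MFH1NR. All 3 subunits were therefore highest in MFH1NR, and for Nbn the difference between the lines, 4.03-fold, was the largest of the 31 members.

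Atm, the kinase that responds to breaks, was not well above background in MSC, where it read 7.68, and read 39.7 in COS1NR and 102 in MFH1NR. Against the lowest signal well above background in MSC, the COS1NR level of Atm was at least 1.68-fold higher, and that in MFH1NR at least 3.35-fold, which normexp background correction lowered to a log2 ratio of 0.59. A second Atm probe was well above background in MFH1NR alone, at 63.4, at least 2.09-fold above MSC. H2ax, the histone variant phosphorylated beside breaks, read 501 in MSC, 1041 in COS1NR and 667 in MFH1NR, with log2 ratios of 0.66 and -0.34. The sign for H2ax in MFH1NR turned with unscaled intensities (0.41) and spike-in scaling (0.18).

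The promoters of the members were read for the E2F motif, since members at least 2-fold above MSC in both lines and the other members can be set side by side. A RefSeq promoter window (GRCr8, 250 bases before to 50 from the transcript start) was matched for 27 of the 31 members. The octamers searched on both strands were TTTCCCGC, TTTCGCGC, TTTGCCGC and TTTGGCGC. They occurred in 8 of the 27 windows (29.6%), Fancd2, Fancc, Bard1, Rad51d, Chek1, Atm, Lig1 and Ung, against 3.97% of 8168 promoters of genes above background and 2.25% of all 27457 promoters. Of the 9 matched members that were at least 2-fold above MSC in both lines, 3 held an octamer (33.3%), and of the 18 other members 5 did (27.8%). With 9 and 18 windows, the shares cannot show whether these groups of members differ. The CCAAT box was in 11 of the 27 (40.7%) against 38.7% of promoters of genes above background, and the cell cycle element TTTGAA in 6 (22.2%) against 12.2%, with 37.7% and 18.1% of all promoters for the 2 motifs. A match is a string of letters and does not show binding.

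Sequences of 180 bases are shown for the 3 genes with an octamer that were at least 2-fold above MSC in both lines (Fancd2, Fancc and Bard1), for 2 of those with an octamer close to the start that were above MSC in both lines but did not reach 2-fold in both (Chek1 and Rad51d), and for Brca1, past 2-fold in both lines with no octamer in its window. Lig1 and Ung also had an octamer close to the start and lay above MSC by less than 2-fold in both lines, and are not shown. Capitals mark the octamer as read on the gene's strand, 5′ to 3′. Each runs from 150 bases before the start to 30 from it, except Bard1, which runs from 250 to 71 bases before it. In GRCr8, Fancd2 is chr4:148234558-148234737 on the plus strand, Fancc chr17:1686939-1687118 on the plus strand, Bard1 chr9:80143826-80144005 on the minus strand, Chek1 chr8:44629814-44629993 on the minus strand, Rad51d chr10:68321873-68322052 on the minus strand and Brca1 chr10:86977552-86977731 on the minus strand.
Fancd2: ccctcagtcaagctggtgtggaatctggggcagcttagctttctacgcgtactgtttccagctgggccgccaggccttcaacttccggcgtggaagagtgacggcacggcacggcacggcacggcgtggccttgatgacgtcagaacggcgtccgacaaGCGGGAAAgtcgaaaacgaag
Fancc: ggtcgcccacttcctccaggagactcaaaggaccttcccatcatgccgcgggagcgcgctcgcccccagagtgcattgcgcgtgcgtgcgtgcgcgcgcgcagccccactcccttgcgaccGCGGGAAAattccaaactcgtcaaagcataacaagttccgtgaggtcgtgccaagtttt
Bard1: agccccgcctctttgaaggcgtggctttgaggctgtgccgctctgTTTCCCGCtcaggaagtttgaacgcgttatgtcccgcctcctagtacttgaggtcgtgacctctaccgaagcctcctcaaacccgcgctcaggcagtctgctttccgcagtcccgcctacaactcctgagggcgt
Chek1: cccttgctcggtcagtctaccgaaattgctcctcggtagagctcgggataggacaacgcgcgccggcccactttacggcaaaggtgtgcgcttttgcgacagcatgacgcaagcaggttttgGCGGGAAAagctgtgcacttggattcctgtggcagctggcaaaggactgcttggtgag
Rad51d: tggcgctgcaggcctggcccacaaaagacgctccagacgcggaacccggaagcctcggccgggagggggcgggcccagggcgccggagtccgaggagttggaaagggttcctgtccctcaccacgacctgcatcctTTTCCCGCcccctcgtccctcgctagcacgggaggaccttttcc
Brca1: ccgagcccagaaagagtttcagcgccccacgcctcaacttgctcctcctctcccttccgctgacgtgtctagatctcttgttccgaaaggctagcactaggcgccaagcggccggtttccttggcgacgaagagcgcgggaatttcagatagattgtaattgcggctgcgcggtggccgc

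Directly between the lines, which shared a slide, the members were close. Nbn was the single member at least 2-fold higher in MFH1NR, where 11.7% of all genes were, and H2ax the single member at least 2-fold lower, where 14.2% of all genes were. The other 29 lay within 2-fold, and 16 of the 31 were higher in MFH1NR at any size, beside 4247 of 9335 genes with a ratio. This split moved with the scaling, to 4 higher and 0 lower with unscaled intensities (18.7% and 9.57% of all genes), 2 and 0 with median scaling (12.4% and 13.2%), 1 and 0 with quantile normalization (12.4% and 13.2%) and 10 and 0 with spike-in scaling (32.8% and 6.70%). H2ax was at the mark itself, with a log2 ratio of -1.0, and Atm lay just inside it on the other side, at 0.996. The Nbn difference was between 2.01 and 2.80 on the log2 scale under the alternatives tried, and that of H2ax between -1.0 and -0.21. The median log2 ratio of MFH1NR over COS1NR was 0.13 over the members and -0.09 over all genes.

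**Figure D3:**
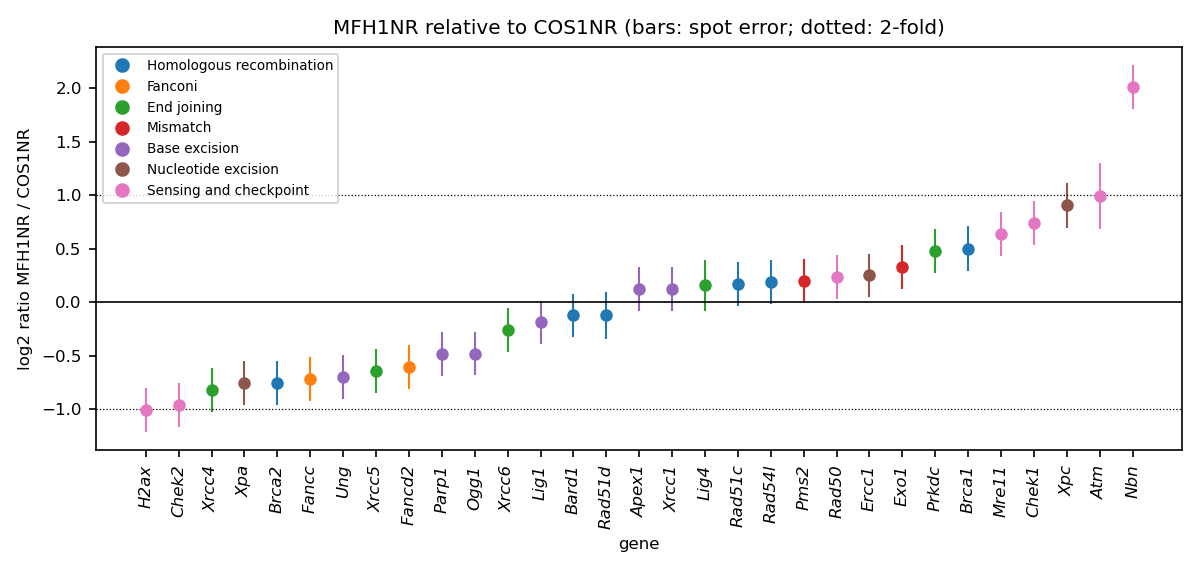
Log2 ratio of MFH1NR over COS1NR for each of the 31 members in order of size, colored by pathway, with bars for the scanner software's spot error and dotted lines at 2-fold. Nbn stands alone at 2.01 and H2ax reaches the lower line, with the other 29 between the lines.

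A further 92 genes of the same pathways, not among the members, gave 65 with a signal. Of these 37 were at least 2-fold above MSC in COS1NR and 35 in MFH1NR, none was at least 2-fold below in either, and 31 were above in both. These counts use the brightest probe of each gene. A second, dimmer probe of Ercc6 was 2.11-fold below MSC in COS1NR, where the probe used was 1.21-fold above. Over all genes the shares above were 20.0%, 19.0% and 10.8%, and those below 19.4% and 21.2%. Their log2 medians were 1.23 (COS1NR) and 1.11 (MFH1NR). Mismatch repair and its replication factors had the largest share above in both lines, 9 of 11, followed by sensing and checkpoint genes with 8 of 11, recombination with 5 of 9 and Fanconi genes with 2 of 4. End joining had 1 of 3, base excision repair 4 of 15 and nucleotide excision repair 2 of 12, the last near the 10.8% of all genes on these scaled values. These counts can move with the scaling. In nucleotide excision, Rpa3 in COS1NR (a log2 ratio of 0.998) and Gtf2h2 and Rpa2 in MFH1NR (0.87 and 0.91) lay just under the mark. Median scaling shifted the median of all genes by 0.17 in COS1NR and 0.22 in MFH1NR.

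The genes farthest from MSC in each pathway gave the following ratios in COS1NR and MFH1NR. In recombination, Eme1, a subunit of a junction nuclease, was 14.8-fold and 16.2-fold above MSC. In the Fanconi pathway, the E2 enzyme Ube2t was 6.03-fold and 11.5-fold above and the deubiquitinase Usp1 3.12-fold and 4.07-fold. All 3 had higher ratios in MFH1NR than in COS1NR on the scaled values. In mismatch repair and DNA synthesis, Rfc4 of the clamp loader was 6.48-fold and 6.52-fold above and the polymerase Pold1 4.61-fold and 4.98-fold. Among checkpoint genes, Hus1 and Rad1 of the checkpoint clamp were 4.95-fold and 7.75-fold, and 6.31-fold and 5.75-fold, above MSC. Hus1 was dim in MSC, at 19.7, close to the lowest signal well above background there, 17.9.

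The remaining pathways had smaller ratios or a dim gene in MSC. The glycosylase Neil3 was at least 4.08-fold and at least 13.7-fold above MSC, where it was not well above background, and the flap nuclease Fen1 was 2.81-fold and 3.49-fold above. In nucleotide excision repair, where the member Ercc1 was lower, Gtf2h4 of the TFIIH complex was 3.69-fold and 2.87-fold above and Rpa3, which coats single-stranded DNA, just under 2-fold (a ratio of 1.998) and 3.11-fold. In end joining the polymerase Polm was 2.15-fold above in both, and the nuclease Dclre1c had ratios of 0.714 and 0.830.

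**Figure D4:**
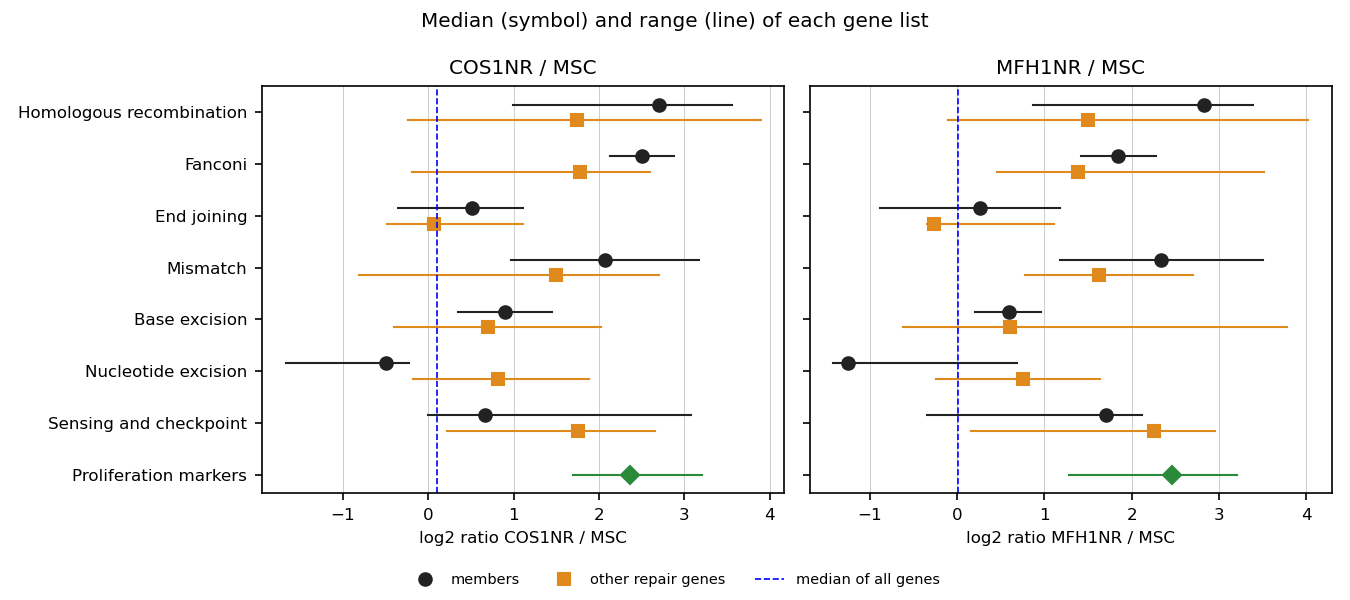
Median (symbol) and range (line) of the log2 ratio to MSC for the members, the other repair genes and the proliferation markers, by pathway, in COS1NR (left) and MFH1NR (right), with the median of all genes dashed. Recombination, Fanconi and mismatch medians lie at 1.38 or above in both gene sets, beside 2.36 and 2.46 for the proliferation markers, and the medians of the nucleotide excision members lie below 0, with 0.81 and 0.75 for the other genes of that pathway.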

How the data were processed

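RNA of 3 rat cell types, 1 array each, was measured as Cy3 intensity. Per the labels and file headers, the authors extracted intensities with Agilent Feature Extraction (version 9.1 in the labels, 10.5.1.1 in the headers), and the deposited processed signal intensity is background-subtracted and not scaled between arrays. The deposited value table equaled it on all 3 arrays, within a relative 1e-05. The labels and the methods name different RNA and labelling kits. Here control and outlier spots were dropped, spots of a probe averaged, and log2 intensity centred on each array's 75th percentile over non-control spots. A gene took its brightest probe on average and was used if well above background on at least 1 array. A dim value was raised to the array's lowest signal well above background, which makes the ratio a bound. Symbols came from the array annotation and RefSeq (GRCr8). Members and lists were chosen with earlier results of these data known. With 1 array a group there was no test and no replicate error. Genes were named by rule: members at least 2-fold from MSC in both lines or between the lines, dim members, and the nearest and farthest of each pathway, with the others by value or range, and the 2 other repair genes of each pathway farthest from MSC, of which 1 is not reported here. Alternatives were unscaled, median and quantile scaling, normexp (limma 3.58.1, R 4.3.3, offset 50, on median signals), the mean of all probes, stricter or no filters, a 3-fold mark and pathway means. Spike-in scaling (7 probes), measured intensities with no limit and the second probe of a member were added after seeing the data. Scripts (Python 3.11.15) were tested on simulated data. The number of arrays limits the precision.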

Additional observations from a re-analysis of the deposited data

Results flagged for a closer look

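For 3 members the 2 sarcoma lines stood on opposite sides of MSC, with 1 array each, so the difference between the lines was not tested. Nbn had a log2 ratio of -0.00090 in COS1NR, in effect level with MSC, and of 2.01 in MFH1NR, and the COS1NR value was 0.39 with unscaled intensities and 0.16 with median scaling. H2ax had 0.66 in COS1NR and -0.34 in MFH1NR, the latter turning to 0.41 unscaled and 0.18 with spike-in scaling. Xpc had -0.22 in COS1NR and 0.69 in MFH1NR, the former turning to 0.17 unscaled.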

How the results depend on the processing

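Of 1018 member ratios recomputed under 11 alternative settings, 828 moved by less than different probes of a gene typically differed, and 0 of those at least 2-fold changed sign. Brca1, Brca2, Bard1, Rad51c, Rad54l, Fancc, Fancd2, Exo1, Chek2 and Rad50 were at least 2-fold above MSC in both lines under each of these settings, and 8 of the 10 passed a 3-fold mark. Of 96 member counts 78 stayed within 1.5 times, and of 288 pathway medians (relative to all genes) 262 moved by less than the probe difference. Scaling shifted the median of all genes, in the order COS1NR over MSC, MFH1NR over MSC and MFH1NR over COS1NR, by 0.41, 0.78 and 0.36 unscaled, by 0.17, 0.22 and 0.06 with median scaling and by -0.27, 0.53 and 0.80 with spike-in scaling. Unscaled intensities put 20 members above MSC in COS1NR, 25 in MFH1NR and 18 in both, with 0 below in MFH1NR or in both, and put 4 higher and 0 lower in MFH1NR than in COS1NR. With median scaling 2 were higher in MFH1NR than in COS1NR and 0 lower. Spike-in scaling, added after seeing the data, put 10 higher and 0 lower in MFH1NR than in COS1NR, with 0 below MSC in MFH1NR or in both. Quantile and normexp settings also gave 0 members lower in MFH1NR than in COS1NR, and a 3-fold mark gave 0 there, 0 below MSC in MFH1NR and 0 in both.

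Medians are given relative to all genes. With normexp they were 1.97 and 1.90 for recombination in COS1NR and MFH1NR, -0.92 for nucleotide excision in MFH1NR, and, for MFH1NR over COS1NR, 0.0038 over all members and 0.39 for sensing. Quantile normalization gave 1.24 for sensing in MFH1NR. With no filter on dim probes, recombination in COS1NR was 2.21 and the MFH1NR over COS1NR medians were 0.44 for all members, 0.49 for recombination, -0.34 for Fanconi, 0.060 for end joining, 0.58 for mismatch, -0.017 for base excision, 0.57 for nucleotide excision and 0.95 for sensing. Requiring all arrays above background gave 0.53 for sensing between the lines, and the mean of all probes gave 0.55 for mismatch. Means over pathways gave -0.90 and -0.67 for nucleotide excision in COS1NR and MFH1NR, and 0.88, 1.35 and 0.47 (between the lines) for sensing. The second probes, used after seeing the data, gave 0.12 and -0.36 (between the lines) for end joining in COS1NR, 0.75 for mismatch between the lines and 1.31 for sensing in MFH1NR. Pathways with 2 or 3 members measured rest on single genes. The causes were not tested. No paired analysis was possible because each cell type had 1 array and the labels carry no replicate numbers. Signal over background limits Atm, Xrcc2 and, in MSC, Brca1, Brca2 and Hus1.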

Other observations

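Among the other repair genes, 7 were at least 2-fold apart between the lines, named here after their values were seen. They were 4 of 65 higher in MFH1NR and 3 of 65 lower, on these scaled values smaller shares than the 11.7% and 14.2% of all genes. Higher in MFH1NR were Neil2, a glycosylase well above background in MFH1NR alone (at least 7.05-fold), Neil3 (3.36-fold), the mismatch repair gene Mlh3 (at least 3.23-fold, not well above background in COS1NR) and Ercc6, of transcription-coupled repair (2.12-fold, and 2.24-fold by a second probe). Lower in MFH1NR were the junction nuclease Mus81 (3.03-fold), Apex2 (2.80-fold) and Faap24 (2.26-fold). With spike-in scaling the last 3 were under 2-fold, at log2 ratios of -0.81, -0.69 and -0.39, as was Faap24 unscaled (-0.82). Spike-in scaling, which moved the median of all genes by 0.80, also takes more genes past 2-fold on the MFH1NR side. Ube2t and Sfr1, at 0.93 each before it, are examples, and 32.8% of all genes were then higher in MFH1NR. With normexp Apex2 (-0.78) and Mlh3 (0.81) were under 2-fold too, and Apex2 read 36.4 in MFH1NR, near the lowest signal well above background there, 30.1. Mus81 read 404 in MSC, 1492 in COS1NR and 633 in MFH1NR, while its partner Eme1 read 40.1, 781.5 and 1099. On the scaled values Mus81 had log2 ratios to MSC of 1.49 in COS1NR and -0.11 in MFH1NR, and Eme1 3.89 and 4.02.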
